A study of Mus musculus with 3 samples.

Results

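The genes described here are 34 members of the glycolytic pathway and of the cellular response to low oxygen, chosen by symbol: 25 act in glucose uptake, glycolysis or the handling of pyruvate and lactate, and 9 belong to the hypoxia response. All 34 symbols were found among the 31017 gene symbols of the deposited single-cell count matrices. The list was made with earlier results of these data known. The matrices came from 3 libraries of CD45+ cells (CD45, encoded by Ptprc, marks leukocytes). The cells were sorted out of stomach muscle that came from female mice of the strain C57bl/6, all labelled NonDiabetic. The tissue was digested with collagenase at 37°C before sorting, and libraries were made with droplet chemistry that counts the 3′ ends of transcripts by unique molecular identifiers (UMIs). The labels do not say whether the 3 libraries came from separate animals or pools, so p-values concern these libraries only. The tests also take part of each gene's spread from other genes. The series' title concerns diabetes, but all libraries used here carry the same label, so cell classes and not conditions were compared.

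Glycolysis splits glucose into pyruvate and yields ATP without oxygen. Cells that turn pyruvate into lactate export it through monocarboxylate transporters. When oxygen is scarce, the prolyl hydroxylases encoded by Egln1 and Egln3 no longer mark the transcription factor subunit Hif1a for destruction, and the stabilised factor induces most glycolytic genes together with Egln3, Bnip3, Ddit4, P4ha1 and Ndrg1. Immune cells are known to lean on this programme when activated, whereas long-lived tissue macrophages lean more on mitochondrial respiration.

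The hypoxia-inducible factor is known to bind a short core, spelled here as ACGTG or GCGTG and searched on both strands. RefSeq promoter windows on GRCm38.p6 were available for 31 of the 34 members (not for Slc2a3, Bnip3l and Ndrg1), as 44 windows of the 250 bases before a transcription start. At least 1 of the 2 cores was present in 81.82% of these windows, against 38.6% of the 32851 windows of all genes. The members' windows were also richer in G and C, with a median of 62.2% against 52.4%, and both cores hold G and C, so the shares are a description and a match is not a binding site. The stretches below are shown as examples, from genes that were called in at least 1 comparison described later. Capitals mark the cores, which read CACGT or CACGC when they lie on the other strand, and CACGTG where both strands carry one. They lie at chr11:120949020-120949052 (plus strand, Slc16a3), chrX:106186930-106186993 (plus strand, Pgk1), chr7:46845639-46845794 (plus strand, Ldha), chr13:6648778-6648927 (minus strand, Pfkp), chr2:11502118-11502232 (minus strand, Pfkfb3), chr14:45318611-45318702 (minus strand, Ero1l) and chr12:54204079-54204123 (minus strand, Egln3). Each lies outside every annotated exon. The stretches of Slc16a3, Ldha, Pfkfb3 and Ero1l lie inside the span of their gene, and those of Pgk1, Pfkp and Egln3 lie just upstream of it.
Slc16a3: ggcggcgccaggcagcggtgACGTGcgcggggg
Pgk1: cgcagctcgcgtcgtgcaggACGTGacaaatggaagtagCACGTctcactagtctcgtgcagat
Ldha: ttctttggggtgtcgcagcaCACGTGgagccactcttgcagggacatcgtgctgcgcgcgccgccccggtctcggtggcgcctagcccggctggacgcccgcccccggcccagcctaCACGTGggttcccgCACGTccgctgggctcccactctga
Pfkp: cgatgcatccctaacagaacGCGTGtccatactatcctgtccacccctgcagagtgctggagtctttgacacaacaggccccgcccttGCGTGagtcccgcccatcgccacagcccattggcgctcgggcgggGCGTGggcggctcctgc
Pfkfb3: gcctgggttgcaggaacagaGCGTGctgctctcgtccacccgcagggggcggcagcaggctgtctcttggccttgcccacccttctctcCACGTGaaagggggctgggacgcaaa
Ero1l: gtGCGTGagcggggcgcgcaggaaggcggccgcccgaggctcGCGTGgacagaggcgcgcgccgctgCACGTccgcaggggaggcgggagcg
Egln3: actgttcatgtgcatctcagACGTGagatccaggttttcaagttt
Ldha, the lactate dehydrogenase subunit that favours lactate, carried 5 ACGTG matches in its window, counting both strands of each palindrome. Pfkp carried 3 GCGTG matches and no ACGTG match.

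Cells with at least 1000 UMIs and at most 15% mitochondrial UMIs were kept, 522, 1692 and 1216 in replicates 1 to 3. Of these, 448, 1421 and 1054 passed exactly 1 marker gate and fell into 12 classes, whose names below stand for gates and not for an annotation. They are monocyte-like cells, 3 dendritic cell (DC) gates (Cd209a, Ccr7 and cDC1), macrophages split by Lyve1, Ccr2 or Cx3cr1 UMIs or none of them, group 2 innate lymphoid cells (ILC2), T and NK cells, mast cells and fibroblasts. Summed profiles held 39596 to 3516899 UMIs, and values are given as UMI counts per 1000000 UMIs of the profile (CPM). Each UMI stands for 1 captured 3′ end, so CPM needs no scaling by transcript length. Several defining markers followed the gates, but they belong to the lists that set them, so their levels are no independent check of the labels. C1qa averaged 4119 CPM in Lyve1 macrophages and 42.1 CPM in monocyte-like cells, Gata3 1529 CPM in ILC2, and Mcpt4 28790 CPM in mast cells. Monocyte markers were mixed. Fn1 averaged 2346 CPM in monocyte-like cells and 76.4 CPM in Lyve1 macrophages, but F13a1 515 and 2249 CPM. Ccr2 averaged 960.5 CPM in monocyte-like cells and 876 CPM in Ccr2 macrophages. In replicates 1 to 3 of monocyte-like cells, Chil3 stood at 215, 179 and 0 CPM and Ly6c2 at 337, 109 and 20.9 CPM. There 8 of 18, 20 of 40 and 11 of 18 cells held only the minimum of 3 markers. The fibroblast gate went against the CD45 label, with Ptprc at 1.55 CPM and Dcn at 12928 CPM, and it also held smooth muscle markers at 719 to 16685 summed CPM. The Ccr7 DC gate carried Cd209a at 853 CPM beside Ccr7 at 778 CPM, so it is called by its genes. Replicate 3 stood apart among the monocyte-like cells, with 6 granulocyte markers summing to 2897 CPM against 63.5 and 186 CPM in replicates 1 and 2. Replicates 2 and 3 shared 33 cell barcodes, 3 of them among kept cells.

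Monocyte-like cells had the highest mean summed level of the glycolytic members, and Lyve1 macrophages the lowest. The 25 glycolysis members summed to 3875 ± 99.3 CPM (SD, n = 3 libraries) in monocyte-like cells, with 3841, 3796 and 3986 CPM in replicates 1 to 3. In Lyve1 macrophages they summed to 1852 ± 95.5 CPM, with 1773, 1958 and 1827 CPM. Between these stood Cd209a DC at 3342 ± 235 CPM, T and NK cells at 3175 ± 707, cDC1 at 3141 ± 57.0, Ccr7 DC at 3140 ± 152, ILC2 at 3023 ± 183, mast cells at 2952 ± 431 and Ccr2 macrophages at 2718 ± 118 CPM. Cx3cr1 macrophages, macrophages without any of the 3 subset genes, and fibroblasts followed at 2111 ± 204, 2016 ± 477 and 1932 ± 588 CPM. Neighbours in this order mostly overlapped: T and NK cells alone ran from 2703 to 3987 CPM. The libraries of monocyte-like cells lay above every library of all other classes except replicate 3 of the T and NK cells, which was at 3987 CPM. The lowest place rested on Gapdh: without it fibroblasts, at 1502 CPM, stood just below Lyve1 macrophages at 1513 CPM, while monocyte-like cells stayed highest at 3033 CPM. In replicate 1, fibroblasts at 1309 CPM and macrophages without the subset genes at 1474 CPM lay below Lyve1 macrophages with Gapdh included. These sums carry no test and include every profile, also those of replicate 1 with 4 Ccr7 DC, 7 cDC1 and 8 mast cells.

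The 9 hypoxia-response members ranked the classes differently. They summed to 1416 ± 672 CPM in mast cells (2071, 1450 and 728 CPM by library), 764 ± 141 CPM in ILC2, 682 ± 71.2 CPM in fibroblasts and 595 ± 163 CPM in monocyte-like cells. The mast value of 2071 CPM came from the 8 cells of replicate 1. All other classes had means from 355 CPM in cDC1 to 483 CPM in Ccr2 macrophages. Lyve1 macrophages, lowest for glycolysis, were in the middle of the order at 466 ± 12.9 CPM.

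**Figure D1:**
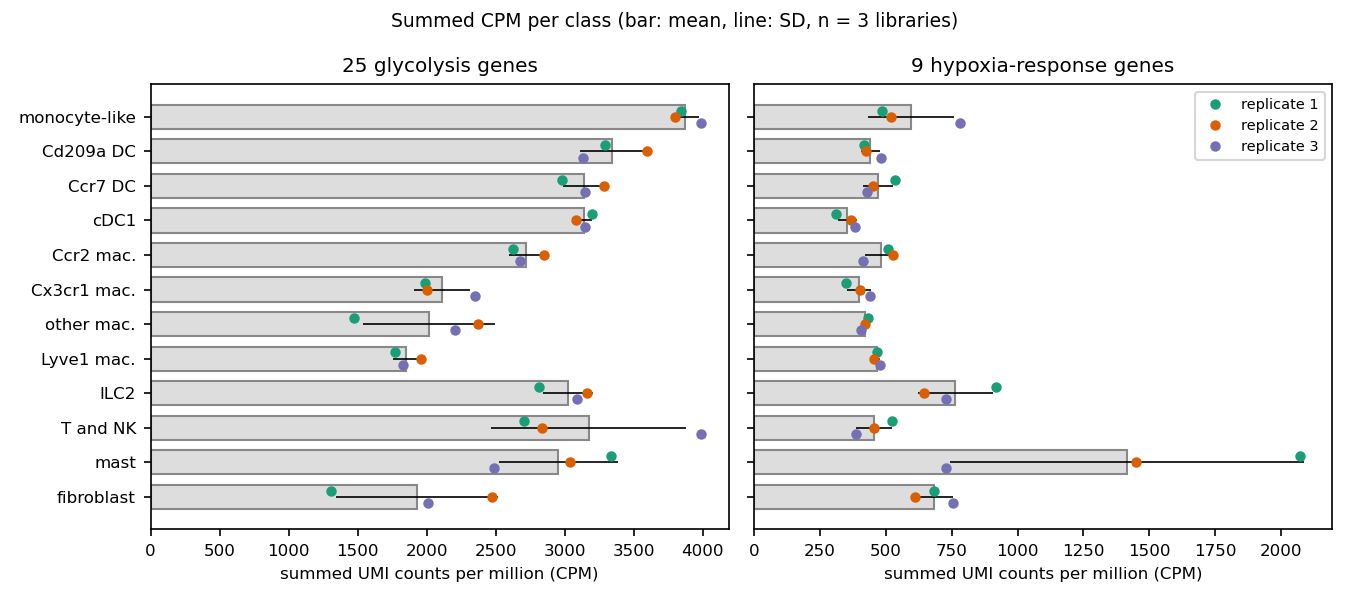
Summed CPM (horizontal axes) of the 25 glycolysis genes (left) and 9 hypoxia-response genes (right) in 12 gated classes; bars are means and lines SDs of 3 libraries, and points are libraries. Glycolysis sums run from 1852 CPM in Lyve1 macrophages to 3875 CPM in monocyte-like cells, and the hypoxia-response sum is highest in mast cells at 1416 CPM with a wide spread.

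Member by member, the ratio between the highest and lowest class means varied within lower glycolysis and within the hypoxia response. Triose phosphate isomerase (Tpi1) differed 2.05-fold, the mitophagy receptor Bnip3l 2.08-fold, Aldoa 2.61-fold and Gapdh 2.91-fold. Other enzymes of lower glycolysis differed more, Pkm 4.09-fold, Pgam1 4.73-fold, Pgk1 6.18-fold and Eno1 11.5-fold. At the other end, Ndrg1 differed 139-fold, Slc2a1 49.4-fold, Ddit4 43.5-fold and the lactate exporter Slc16a3 33.4-fold. The lowest means of Ndrg1, Slc2a1, Ddit4 and Slc16a3 rested on few UMIs. By replicate, Ndrg1 had 1, 1 and 0 UMIs and Slc16a3 0, 2 and 0 UMIs in T and NK cells. Ddit4 had 1, 3 and 0 UMIs in monocyte-like cells, and Slc2a1 6, 0 and 0 UMIs in fibroblasts. The highest Ndrg1 mean, in mast cells, included the 8 cells of replicate 1. The large ratios are therefore imprecise, and all of these ratios are a description only. Mast cells held the highest mean of 7 members, fibroblasts of 6, and monocyte-like cells and ILC2 of 5 each. Only members with UMIs in every class enter these ratios. The 5 of monocyte-like cells were Hk3, Pgk1, Pkm, Slc16a3 and Hif1a.

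**Figure D2:**
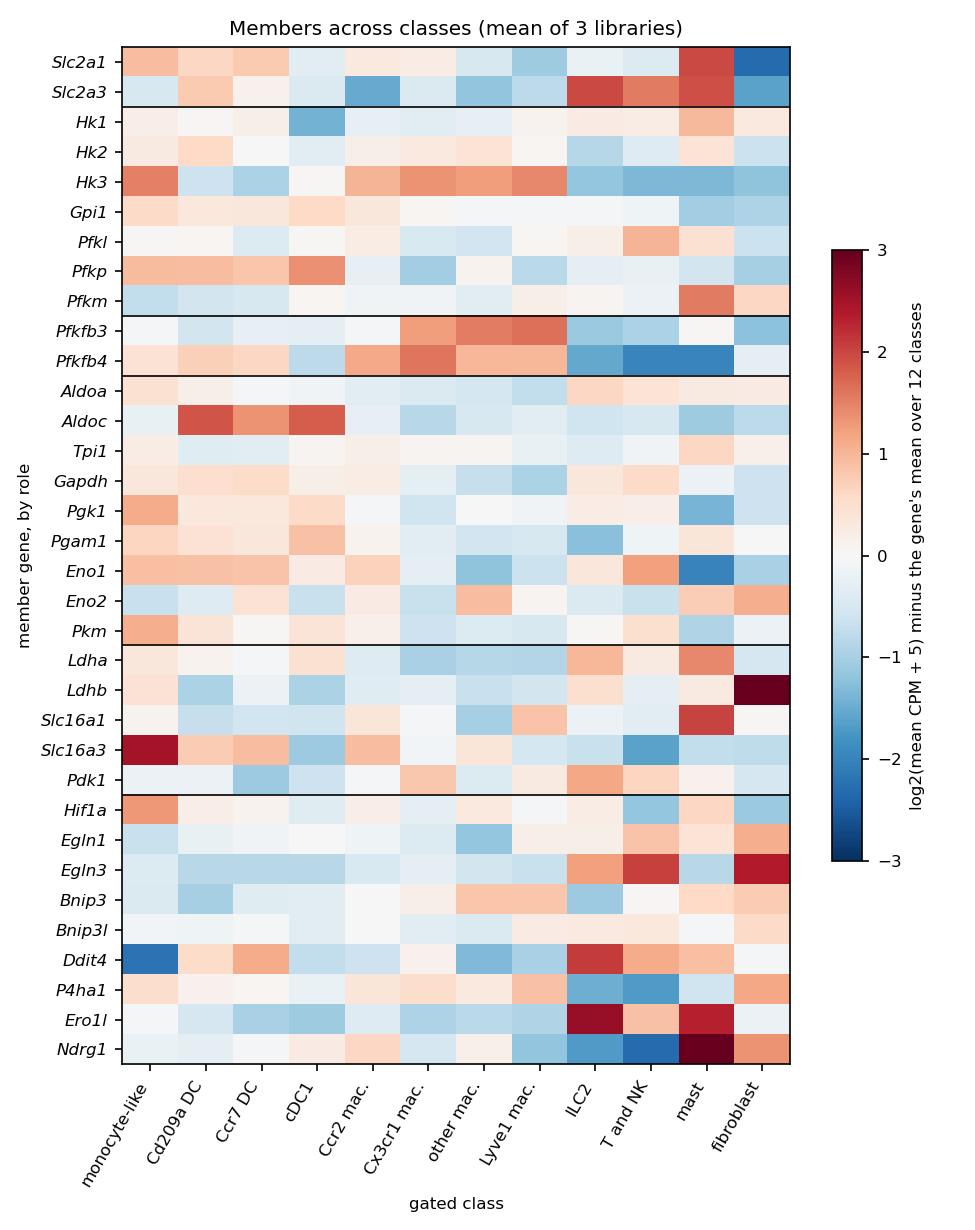
Members (rows, grouped by role) in the 12 gated classes (columns); colour gives log2(mean CPM + 5) minus the gene's own mean over classes, from the mean of 3 libraries, with red high and blue low. Slc16a3 is red in monocyte-like cells, Ndrg1 in mast cells, Ero1l in ILC2 and mast cells, Ldhb and Egln3 in fibroblasts, and Pfkfb3 in Lyve1 macrophages.

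The members include the glucose transporters GLUT1 (Slc2a1) and the higher-affinity GLUT3 (Slc2a3), and glucose uptake itself was not measured. ILC2 and the T and NK cells held mainly Slc2a3, and monocyte-like cells and Ccr2 macrophages mainly Slc2a1. Of the UMIs of the pair, Slc2a1 made up 83.9% in monocyte-like cells (95% exact interval 71.7% to 92.4%) and 91.3% in Ccr2 macrophages, but 22.1% in ILC2 and 25.7% in T and NK cells. Other myeloid classes were nearer to an even split, with 57.2% in Lyve1 macrophages (49.5% to 64.7%), 56.7% in Cd209a DC and 60% of 35 UMIs in cDC1. Such intervals cover counting error only. ILC2 held Slc2a3 at 119, 116 and 79.5 CPM by replicate, and T and NK cells at 88.6, 88.1 and 55.4 CPM. Mast cells held both transporters, Slc2a1 at 177, 159 and 124 CPM and Slc2a3 at 126, 139 and 41.2 CPM. In fibroblasts Slc2a1 had UMIs in replicate 1 alone.

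Among hexokinases, which trap glucose as glucose 6-phosphate, Hk2 had the largest pooled share in every class, at 56.3% (ILC2) to 86.2% (cDC1) of the Hk1, Hk2 and Hk3 UMIs. In single libraries Hk1 led in replicate 1 of ILC2, at 58.1%, and, on 7 and 17 UMIs, in replicate 3 of the T and NK cells and of the fibroblasts. Hk3, known from myeloid cells, made up 11.4% to 18.6% in macrophage classes and 12.5% in monocyte-like cells, and at most 3.2% elsewhere. No Hk3 UMI was found in T and NK cells, where a count of 0 allows up to 9.34 CPM, or in mast cells. Platelet-type phosphofructokinase (Pfkp) was the main gene of the committing step in all 12 classes, from 60% in mast cells (12 of 20 UMIs) to 93.5% in Ccr7 DC. The muscle type Pfkm made up 15.0% in mast cells and 13.8% in fibroblasts and at most 5.5% elsewhere. The regulators Pfkfb3 and Pfkfb4, which make the phosphofructokinase activator fructose 2,6-bisphosphate, had their highest means in macrophages. Pfkfb3 averaged 122 ± 32.5 CPM in Lyve1 macrophages and 90.8 ± 81.6 CPM in Cx3cr1 macrophages, but 34.3 CPM in Ccr2 macrophages, inside the range of 12.05 to 36.5 CPM of the classes outside the macrophages. Pfkfb4 averaged 54.9 CPM in Cx3cr1 macrophages and had no UMI in T and NK cells or mast cells.

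In lower glycolysis, Aldoa supplied at least 90.0% of aldolase UMIs in every class, and Aldoc was found mainly in DC, at 33.7 ± 12.8 CPM in Cd209a DC. Eno1 supplied at least 88.2% of enolase UMIs except in mast cells (3 of 4 UMIs) and fibroblasts (69.4% of 49 UMIs). Ldha supplied at least 97.2% of lactate dehydrogenase UMIs except in fibroblasts, at 76.7%. For lactate exit, Slc16a3 (MCT4) made up 91.5% of the Slc16a1 and Slc16a3 UMIs in monocyte-like cells, 34.8% in Lyve1 macrophages and 2 of 12 UMIs in mast cells, where Slc16a1 (MCT1) led and replicate 2 had no UMI of either gene. Pdk1, a kinase that inhibits pyruvate dehydrogenase, was low throughout and highest in ILC2, at 39.2, 22.7 and 21.3 CPM.

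**Figure D3:**
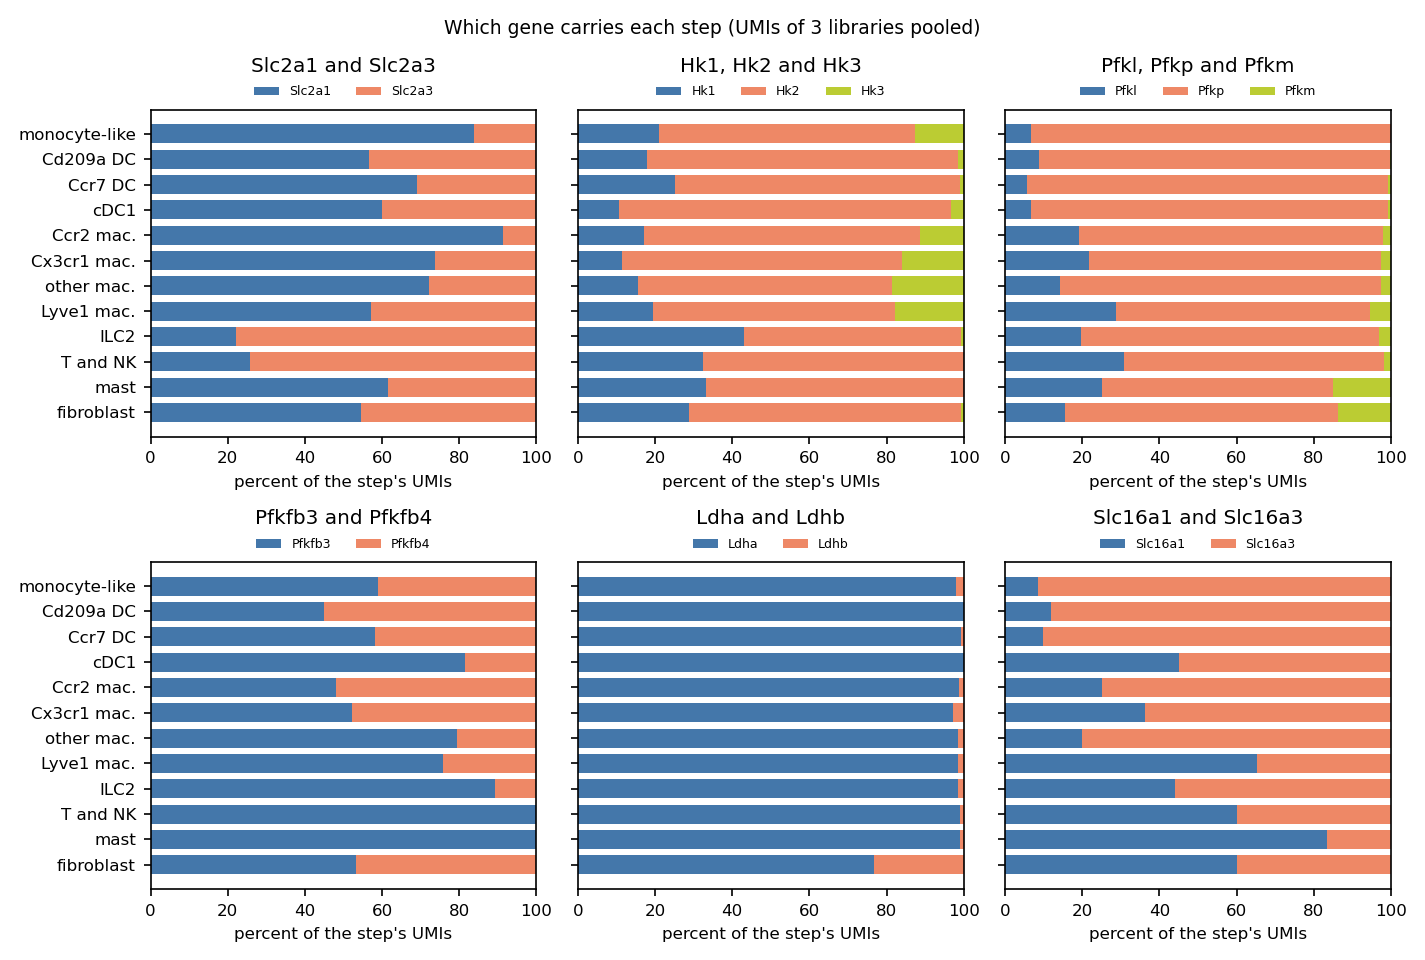
Percent of each step's UMIs (horizontal axes, 3 libraries pooled) supplied by each isoform in the 12 gated classes. The Slc2a3 share is 77.9% in ILC2 and 16.1% in monocyte-like cells, Hk3 appears in the monocyte-like and macrophage rows, and the Slc16a3 share is 91.5% in monocyte-like cells and 34.8% in Lyve1 macrophages.

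Monocyte-like cells held more of the glycolytic members than Lyve1 macrophages, from the glucose transporter Slc2a1 to the lactate exporter Slc16a3, and less Pfkfb3. Of 25 members that passed the low-count filter, 12 were higher in monocyte-like cells and 1 was lower (edgeR quasi-likelihood test on summed counts with the library as a block, Benjamini-Hochberg adjusted p under 0.05). Over all 5893 genes tested, 25.5% were called, 11.5% higher and 14.0% lower. The median log2 fold change of the tested members was 0.99, against -0.03 over all genes. Most of the called members were glycolytic: 11 of 19 tested glycolysis members rose, and 1 of 6 tested hypoxia-response members, Hif1a, did.

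At the entry, Slc2a1 stood at 97.7, 38.6 and 76.8 CPM in monocyte-like cells of replicates 1 to 3, and at 16.0, 19.1 and 6.94 CPM in Lyve1 macrophages. The libraries did not overlap (log2 fold change 2.20 ± 0.44 SE, edgeR adjusted p = 0.00097). Pfkp stood at 298, 227 and 175 CPM against 103, 54.0 and 37.7 CPM, also without overlap (1.98 ± 0.25, edgeR adjusted p = 5.62e-06). Pfkfb3 went the other way, at 58.6, 7.24 and 34.9 CPM in monocyte-like cells and 153, 125 and 88.1 CPM in Lyve1 macrophages. Every library of Lyve1 macrophages was above every library of monocyte-like cells (-2.13 ± 0.41, edgeR adjusted p = 0.000599).

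At the exit, enolase 1 (Eno1) stood at 191, 186 and 202 CPM against 58.7, 59.7 and 72.4 CPM (1.64 ± 0.24, edgeR adjusted p = 3.54e-05). Pyruvate kinase (Pkm) stood at 562, 408 and 510 CPM against 157, 185 and 149 CPM (1.61 ± 0.23, edgeR adjusted p = 3.46e-05). Slc16a3 stood at 127, 147 and 216 CPM against 23.1, 13.4 and 10.9 CPM, the largest difference of the 25 tested members (3.56 ± 0.32, edgeR adjusted p = 1.1e-07). None of these 3 genes overlapped between the classes. Gpi1, Aldoa, Gapdh, Pgk1, Pgam1, Ldha and Hif1a also rose, by 0.66 to 1.37 on the log2 scale, so the called genes reach from uptake to lactate export. Hexokinases did not pass: Hk1, Hk2 and Hk3 each gave folds within 0.50 of 0 on the log2 scale.

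The lists around the members moved in part with them, where 25.5% of all genes tested were called, 11.5% higher and 14.0% lower. Of the genes of pyruvate entry into mitochondria, 1 of 5 tested rose. Of 7 tested other hypoxia-induced genes 2 rose and 1 fell, and of 3 tested other glycolysis, gluconeogenesis and transport genes 2 rose and 1 fell. In the pentose phosphate branch, which makes NADPH and ribose, 4 of 6 tested genes rose (Pgls, Pgd, Taldo1 and Tkt). Slc2a6, a glucose transporter of lysosomes, stood at 83.1, 45.9 and 48.9 CPM against 3.56, 3.13 and 3.32 CPM (4.00 ± 0.50, edgeR adjusted p = 6.08e-06). Bhlhe40, a hypoxia-induced transcriptional repressor, stood at 303, 205 and 161 CPM against 21.3, 39.8 and 20.2 CPM (2.95 ± 0.29, edgeR adjusted p = 2.78e-07). Of 4 tested oxygen-sensing genes 1 fell, a share of 25% and near that of all genes. It was Cited2, which competes with Hif1a for its coactivator (-1.34 ± 0.29, edgeR adjusted p = 0.00149). Genes of dissociation and stress, such as Fos and Hspa1a, also differed: the 10 summed to 9114 to 18047 CPM in monocyte-like cells and 20882 to 30150 CPM in Lyve1 macrophages. Their part in the result was not tested.

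Against Ccr2 macrophages, 6 of 25 tested members were higher in monocyte-like cells and none was lower, where 8.27% of the 6783 genes tested were called, 3.36% higher and 4.91% lower. The median of the members was 0.15, against -0.03 over all genes. The monocyte-like profiles are the same as in the comparison with Lyve1 macrophages. Slc16a3 stood at 60.6, 69.6 and 24.9 CPM in Ccr2 macrophages, below the 127 to 216 CPM of monocyte-like cells (1.57 ± 0.30, edgeR adjusted p = 0.00194). Pfkp stood at 109, 112 and 76.7 CPM in Ccr2 macrophages (1.13 ± 0.21, edgeR adjusted p = 0.00164). Phosphoglycerate kinase (Pgk1), the first ATP-yielding step, stood at 288, 193 and 279 CPM in monocyte-like cells and 112, 129 and 94.0 CPM in Ccr2 macrophages (1.05 ± 0.23, edgeR adjusted p = 0.00485). The libraries of the classes did not overlap for any of these 3 genes.

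Hif1a stood at 225, 210.1 and 489 CPM in monocyte-like cells and 139, 174 and 111 CPM in Ccr2 macrophages (0.92 ± 0.26, edgeR adjusted p = 0.0344). Replicate 3 decided this value: 1 of its 18 cells held 32.9% of its Hif1a UMIs, and without it the fold change was 0.43 with an adjusted p of 0.444. Leaving out cells with at least 2 granulocyte markers, 1 of the 18 in replicate 3, gave 0.93 with an edgeR adjusted p of 0.0516. Pkm and Aldoa rose by 0.83 and 0.67 on the log2 scale. The count of 6 fell to 1 without replicate 1 (Slc16a3), to 1 without replicate 3 (Pfkp) and to 1 with a stricter marker gate. Among the fixed lists, Slc2a6 and Bhlhe40 rose by 1.68 and 0.70, and Cited2 fell by 1.47 on the log2 scale (edgeR adjusted p = 0.00715, 0.0478 and 0.000501).

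**Figure D4:**
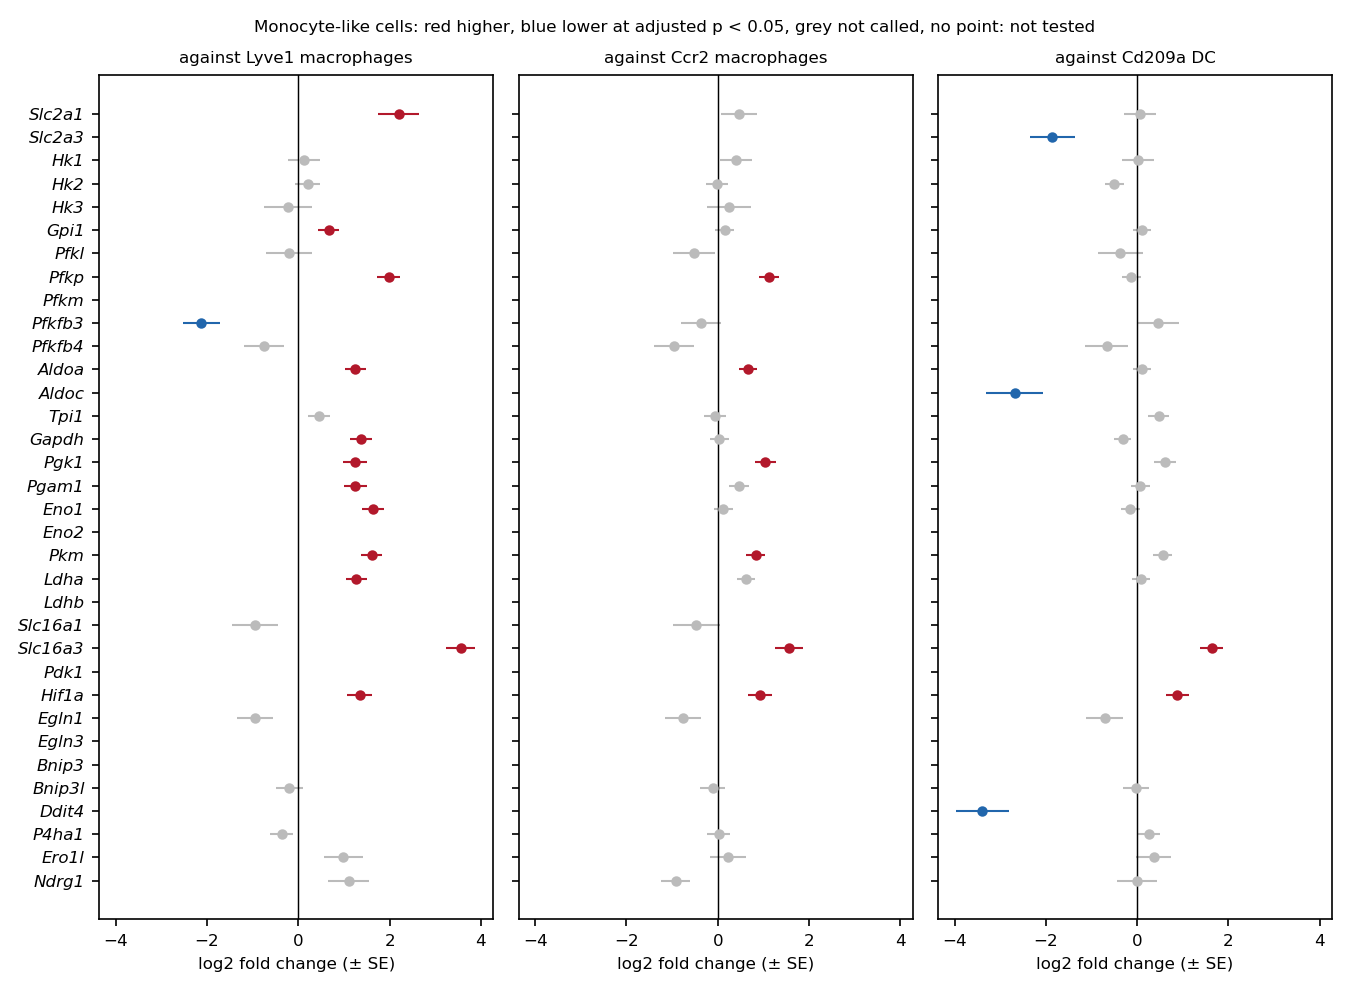
Log2 fold change ± SE (horizontal axes) of each tested member in monocyte-like cells against Lyve1 macrophages, Ccr2 macrophages and Cd209a DC; red points are higher and blue points lower at an edgeR adjusted p under 0.05, grey points were not called, and members without a point were not tested. Red points number 12, 6 and 2 from left to right; all 3 panels use the same monocyte-like profiles.

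Against Cd209a DC, monocyte-like cells held more Slc16a3 and Hif1a and less Ddit4, Aldoc and Slc2a3, 5 of 26 tested members, where 8.22% of all 5989 genes tested were called, 4.36% higher and 3.86% lower. Slc16a3 stood at 48.9, 49.5 and 39.3 CPM in Cd209a DC, below all monocyte-like libraries (1.63 ± 0.26, edgeR adjusted p = 0.00084). Hif1a stood at 151, 141 and 127 CPM in Cd209a DC (0.88 ± 0.25, edgeR adjusted p = 0.0429). Without replicate 3 the Hif1a value was 0.47, with an adjusted p of 0.388, and the count of 5 called members was 3 without replicate 1 and 1 with a stricter gate.

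Ddit4, an inhibitor of the growth kinase mTORC1, stood at 4.89, 7.24 and 0 CPM in monocyte-like cells, a total of 4 UMIs, and at 43.3, 40.9 and 86.1 CPM in Cd209a DC (-3.39 ± 0.58, edgeR adjusted p = 0.00165). The dissociation and stress genes summed to 7604 to 26155 CPM in these DC, and their part was not tested. Aldoc, with 4 UMIs in monocyte-like cells and 93 in Cd209a DC, and Slc2a3, with 9 and 120 UMIs, fell by 2.68 and 1.86 on the log2 scale. Bhlhe40 was lower in monocyte-like cells than in Cd209a DC (-1.40 ± 0.20, edgeR adjusted p = 0.000456), at 900.0, 423 and 357 CPM in the latter.

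Few members were called in the only pair of macrophage subsets tested. Ccr2 macrophages were not tested against another subset. The glycolysis members of Ccr2 macrophages summed to 2626 to 2851 CPM by library, against 1773 to 1958 CPM in Lyve1 macrophages. Between Cx3cr1 and Lyve1 macrophages 3 of 27 tested members were called, all higher in the Cx3cr1 class, which is 11.1%, near the 10.8% of all 6414 genes called (6.31% higher and 4.52% lower). Gapdh stood at 493, 490.0 and 661.5 CPM in Cx3cr1 macrophages and 242, 373 and 404 CPM in Lyve1 macrophages (0.85 ± 0.15, edgeR adjusted p = 0.0018). Its libraries did not overlap, whereas those of Slc2a1 (1.75 ± 0.33, edgeR adjusted p = 0.00295) and Ndrg1 (1.14 ± 0.32, edgeR adjusted p = 0.0363) did. Slc2a1 stood at 41.1, 65.0 and 18.2 CPM in Cx3cr1 macrophages, each above Lyve1 macrophages of the same library. From the fixed lists, Cited2 rose by 0.79 on the log2 scale (edgeR adjusted p = 0.00549). Without the library block no member was called, and without replicate 1 7 were.

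The 2 DC comparisons rest on replicates 2 and 3, because replicate 1 held only 4 Ccr7 DC and 7 cDC1. Between Ccr7 DC and Cd209a DC, 0 of 26 tested members were called by edgeR, where 1.41% of the 5526 genes were (1.03% higher and 0.38% lower). DESeq2 also called 0, and 1 member, Pfkfb3, had an unadjusted edgeR p under 0.05. Fold changes ran from -0.80 to 1.60 on the log2 scale, 22 of 26 within 0.5 of 0, with a median SE of 0.33, so differences of that size could not be told from 0. The exception of 1.60 was Pfkfb3, at 26.4 and 29.1 CPM against 6.46 and 12.8 CPM in replicates 2 and 3.

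In cDC1, the cross-presenting type, 5 of 26 tested members were lower than in Cd209a DC and none was higher, where 16.9% of the 5947 genes were called (7.52% higher and 9.43% lower). The 5 were Slc2a1, Slc2a3, Hk1, Pfkfb4 and Slc16a3, and their share of 19.2% was near that of all genes. Slc2a1 stood at 25.8 and 14.8 CPM in cDC1 and 62.4 and 58.4 CPM in Cd209a DC (-1.50 ± 0.39, edgeR adjusted p = 0.00702). The other four rest on 4 to 12 UMIs in cDC1 and fell by 1.43 to 2.40 on the log2 scale. DESeq2 called none of the 5. The core enzymes Gpi1, at 291 and 317 CPM in cDC1, and Pfkp, at 340.2 and 189.8 CPM, were not called. In the pentose phosphate list 2 genes rose and 2 fell of 6 tested: Taldo1 rose by 0.86 and Pgls by 0.68, and G6pdx and Pgd fell by 1.68 and 1.32 on the log2 scale. Bhlhe40 fell by 1.06 (edgeR adjusted p = 0.000403).

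ILC2 held more of 3 of 23 tested members than T and NK cells and less of none, where 11.7% of the 5319 genes were called (7.18% higher and 4.51% lower). Ero1l, the oxidase that drives disulfide formation in secreted proteins, stood at 386, 201 and 159 CPM in ILC2 and at 151, 51.4 and 13.8 CPM in T and NK cells. The lowest ILC2 library was above the highest T and NK library by a narrow margin (2.02 ± 0.32, edgeR adjusted p = 0.000506). In replicate 1 of ILC2, 1 cell held 21.04% of the Ero1l UMIs. Hif1a stood at 157, 198 and 76.1 CPM against 62.0, 51.4 and 41.5 CPM (1.76 ± 0.34, edgeR adjusted p = 0.00282). Ldha stood at 443, 563 and 546 CPM against 204, 301 and 415 CPM (1.05 ± 0.21, edgeR adjusted p = 0.00352). For both genes the classes did not overlap, though the T and NK counts of Hif1a were only 17 UMIs in all, and without replicate 2 only 1 member was called.

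Ddit4 was high in ILC2 at 165, 51.0 and 312 CPM and did not pass the test against T and NK cells, where it stood at 88.6, 88.1 and 83.1 CPM. Among the fixed lists, the secreted glycoprotein gene Stc2 had 246 UMIs in ILC2, at 74.6, 92.6 and 78.3 CPM, and none in T and NK cells. It was at least 8.79-fold higher in ILC2, against 3 counts over the T and NK class (edgeR adjusted p = 0.000337). Bhlhe40 rose by 1.80 and Epas1, which encodes HIF-2α, by 2.28 on the log2 scale, the latter with 4 UMIs in T and NK cells (edgeR adjusted p = 0.00046 and 0.026). Dissociation and stress genes summed to 13940 to 24780 CPM in ILC2 and 7461 to 10093 CPM in T and NK cells, and their part was not tested.

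Mast cells were compared with ILC2 in replicates 2 and 3, with 18 mast cells each. With 2 libraries, p-values rest in part on the spread of other genes, so very small ones are not read as precision between libraries. Of 23 tested members, 2 were higher (Ndrg1 and Slc2a1) and 3 were lower (Gpi1, Pgk1 and Eno1), where 13.4% of the 4853 genes were called, 6.16% higher and 7.23% lower. The median over all genes was -0.24, so folds are read against that value. Over all genes DESeq2 called 174 higher and 116 lower, where edgeR called 299 and 351. Ndrg1, a stress-responsive gene induced by hypoxia, stood at 616 and 179 CPM in mast cells and 23.6 and 3.36 CPM in ILC2 (4.75 ± 0.52, edgeR adjusted p = 4.68e-18). Replicate 1, left out of the test with 8 mast cells, had it at 1465 CPM, so mast libraries differed widely among themselves, and the lowest lay just above the highest fibroblast library at 167.5 CPM. Slc2a1 stood at 159 and 124 CPM against 35.9 and 29.1 CPM (1.97 ± 0.59, edgeR adjusted p = 0.00938).

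Gpi1, Pgk1 and Eno1 are core enzymes of the pathway. Eno1 had 1 UMI in the 2 mast profiles against 250 UMIs in ILC2, a ratio of 15.8 in favour of ILC2 with an exact counting interval of 2.81 to 626 (edgeR adjusted p = 0.000382). Pgk1 had 3 UMIs against 250, a ratio of 5.26 with an interval of 1.78 to 25.7 (edgeR adjusted p = 0.00907). Gpi1 stood at 39.7 and 96.1 CPM against 186 and 182 CPM (-1.48 ± 0.53, edgeR adjusted p = 0.0427). Ldha went with none of them, at 795 and 590.3 CPM in mast cells and 563 and 546 CPM in ILC2, and did not pass. DESeq2 called only Ndrg1. The mast profiles tested held 50349 and 72847 UMIs, so the mast values of Slc2a1 and Gpi1, and of Vegfa below, also rest on few UMIs. Dissociation and stress genes summed to 17617 and 42377 CPM in mast cells and 13940 and 24780 CPM in ILC2 of replicates 2 and 3, and their part was not tested. Macrophage markers summed to 2879 to 3981 CPM in mast cells, led by Cd63 at 1943 and Apoe at 1551 CPM, while C1qa averaged 19.9 CPM. Among the fixed lists, Vegfa stood at 179 and 206 CPM against 9.45 and 19.0 CPM (3.63 ± 0.62), and the coactivator gene Cited4 at 298 and 535 CPM against 8.50 and 6.71 CPM (5.57 ± 0.52), with edgeR adjusted p = 1.19e-07 and 3.97e-24. Stc2 had no UMI in mast cells and was at least 3.53-fold lower, against 3 counts over the mast class.

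**Figure D5:**
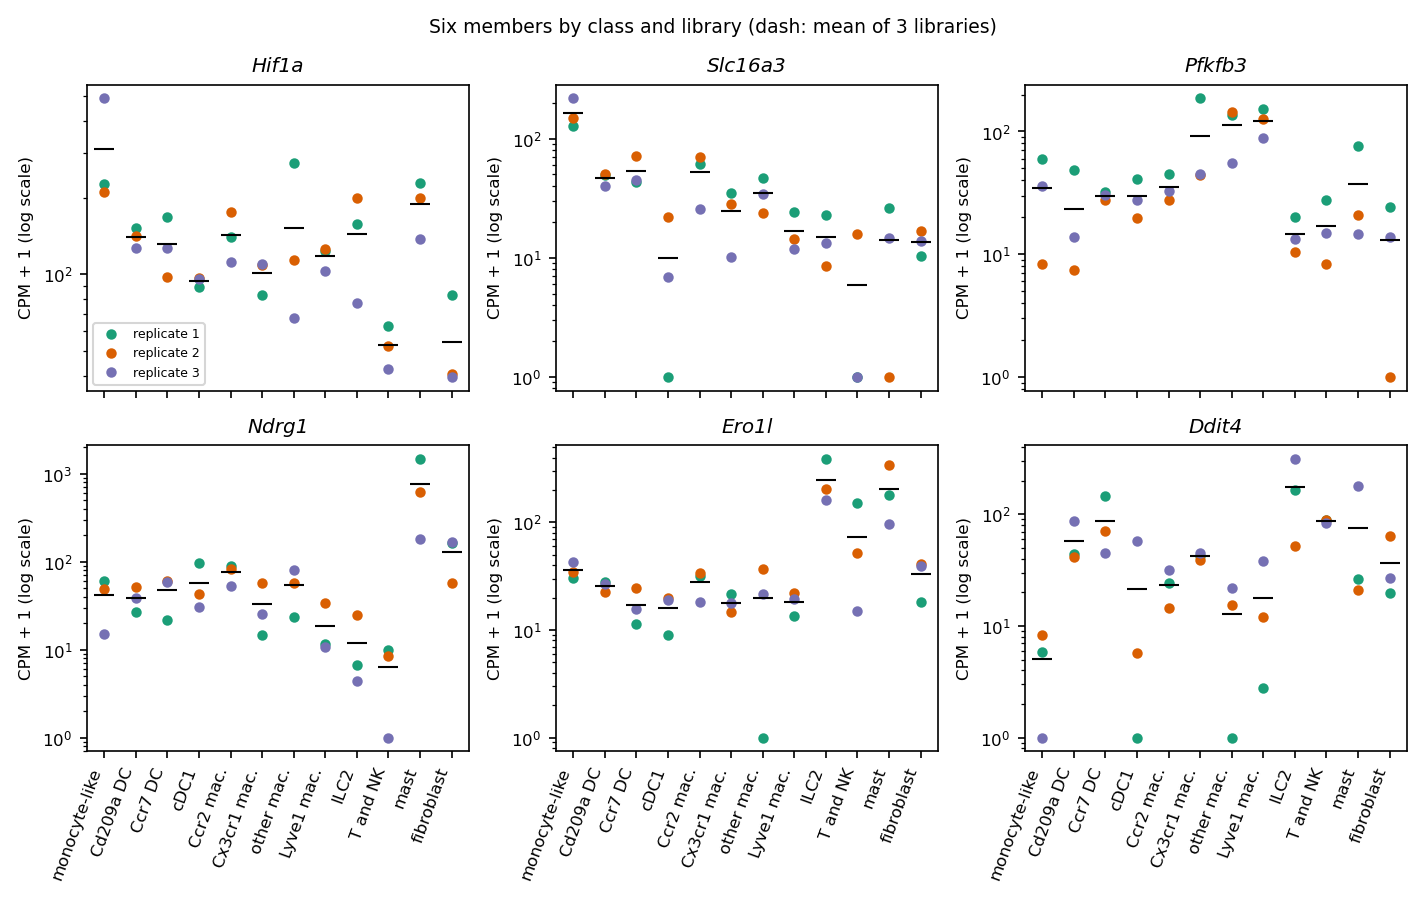
CPM + 1 on log axes of Hif1a, Slc16a3, Pfkfb3, Ndrg1, Ero1l and Ddit4 in the 12 gated classes; points are the 3 libraries and dashes their means. Slc16a3 is highest in monocyte-like cells (127 to 216 CPM) and Ndrg1 in mast cells (179 to 1465 CPM), and the Hif1a value of 489 CPM in monocyte-like cells comes from replicate 3.

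Fibroblasts, present despite the CD45 sort, held more Ldhb, Aldoa, Egln1, Egln3 and Ndrg1 than Lyve1 macrophages, and less Pfkfb3, Gpi1 and Hk3. Of 27 tested members 5 were higher and 3 lower, where 41.4% of the 7163 genes tested were called (20.0% higher and 21.4% lower), so the members' share of 29.6% was below that of all genes. The Lyve1 macrophage profiles are the same as in the comparisons with monocyte-like and Cx3cr1 cells. Ldhb, the lactate dehydrogenase subunit typical of oxidative tissue, stood at 18.6, 143 and 51.5 CPM in fibroblasts and 0, 2.56 and 2.11 CPM in Lyve1 macrophages (5.22 ± 0.53, edgeR adjusted p = 2.03e-07). Ndrg1 stood at 159.7, 55.6 and 168 CPM against 10.7, 32.7 and 9.65 CPM (3.01 ± 0.52, edgeR adjusted p = 0.00012). Egln1 stood at 83.7, 79.4 and 109 CPM against 42.7, 42.9 and 52.2 CPM (1.06 ± 0.33, edgeR adjusted p = 0.015).

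Egln3, itself a target of the factor it restrains, had 28 UMIs in fibroblasts and 6 in the far deeper Lyve1 macrophages (5.69 ± 0.67, edgeR adjusted p = 1.27e-06). Its fibroblast libraries stood at 23.3, 79.4 and 19.3 CPM. Egln3 was also found in T and NK cells at 53.2, 14.7 and 27.7 CPM and in ILC2 at 20.1, 18.9 and 7.83 CPM, had at most 6 UMIs in each monocyte-like or macrophage class, and had none in any DC gate or in mast cells. Aldoa stood at 217, 421 and 316 CPM against 149, 162 and 158 CPM (1.03 ± 0.27, edgeR adjusted p = 0.00525). Pfkfb3 stood at 23.3, 0 and 12.9 CPM in fibroblasts (-2.83 ± 0.46, edgeR adjusted p = 6.68e-05), and Gpi1 at 72.9, 111 and 103 CPM against 148, 199.6 and 197 CPM (-0.85 ± 0.30, edgeR adjusted p = 0.0284). Hk3 had 1 UMI in fibroblasts, a ratio of 31.3 in favour of Lyve1 macrophages with an exact interval of 5.57 to 1242.

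In the list of other hypoxia-induced genes, 9 of 13 tested were higher in fibroblasts and none lower, with a median of 2.60 against -0.04 over all genes. Those with the largest folds shape collagen: Lox had 120 UMIs against 1 in Lyve1 macrophages (a ratio of 958, exact interval 169 to 38156), Plod2 stood at 456, 325 and 316 CPM against 1.78, 1.71 and 0.603 CPM, and Loxl2 at 301, 71.4 and 129 CPM against 1.78, 3.13 and 6.64 CPM. Their edgeR adjusted p-values were 1.41e-08, 6.75e-11 and 1.1e-07. Of 6 tested genes of pyruvate entry into mitochondria, 3 rose (Mpc1, Mpc2 and Pdha1) and none fell, a share of 50% beside the 41.4% of all genes called. Smooth muscle markers varied from 719 to 16685 summed CPM across the 3 fibroblast profiles, and their part in these values was not tested.

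The members not yet named as called in any comparison were Hk2, Pfkl, Pfkm, Tpi1, Eno2, Slc16a1, Pdk1, Bnip3, Bnip3l and P4ha1. Pfkm, Eno2 and Pdk1 were low, with 78, 91 and 287 UMIs over all 12 classes. P4ha1, a collagen prolyl hydroxylase subunit, averaged 156 CPM in fibroblasts and 17.1 CPM in T and NK cells, and Lyve1 macrophages held it at 122.7, 115 and 146 CPM. Bnip3, a mitophagy receptor like Bnip3l, was highest in Lyve1 macrophages at 40.9, 19.3 and 25.0 CPM and lowest in ILC2 at 2.87, 3.78 and 4.48 CPM, a difference that was not tested.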

How the data were processed

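Values were whole-number UMI counts per gene and cell barcode in 3 deposited 10x matrices, made by the authors with Cell Ranger 3.1 on mm10, per the submitters' processing notes. The software version in the file headers is 3.0.0 in replicate 1 but 3.1.0 in the others. The treatment of reads that match several genes was not given in the sources used here, so genes with near-identical pseudogenes (Gapdh, Aldoa, Pgk1, Ldha, Eno1, Tpi1) are uncertain. The libraries held 6777422 to 13336484 UMIs in 881 to 2839 barcodes.

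Cells with at least 1000 UMIs and at most 15% mitochondrial UMIs were kept. Gates asked for 3 to 5 markers of a fixed list, with minimums set after marker counts, but not members, had been seen. Cells that passed several gates were left out, and macrophages were split by UMIs of Lyve1, Ccr2 and Cx3cr1 in that order. Suspected doublets (the top scrublet scores, 0.8% per 1000 barcodes) were left out only in an alternative. Counts were summed per class and library. Tests used only profiles of at least 10 cells. CPM means, sums and shares used every profile, also the 4 Ccr7 DC, 7 cDC1 and 8 mast cells of replicate 1. CPM is scaled to 1000000 UMIs.

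Tests were edgeR 4.0.16 quasi-likelihood fits (R 4.3.3) with the library as a block, edgeR's filter on low counts, and a threshold of 0.05 on p-values adjusted by Benjamini-Hochberg across every gene in the fit. There were 9 comparisons. In these fits the spread of a gene is estimated partly from other genes. This matters most for Ccr7 DC, cDC1 and mast cells, which had only 2 libraries. The block pairs classes of the same library, which share a tissue sample. Each SE was derived from the test, as the absolute log2 fold change divided by the square root of its F statistic. It is therefore approximate, above all for genes with few UMIs. Alternatives used DESeq2 1.42.0, other size factors, no low-count filter, no block, other cell filters, stricter gates and each replicate left out. Simulated data with a fixed dispersion and no library effect were fitted only for monocyte-like cells against Lyve1 macrophages and cDC1 against Cd209a DC. Their outcome is not given here, and the other comparisons were not simulated. Gates and summaries used Python 3.11.15 and scipy 1.17.1.

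The members and all lists were chosen with earlier results of these data known. In each comparison up to 6 called members with at least 50 CPM in 1 class and 1 direction in every library were given in full, by size of fold change, and up to 3 genes of the other pathway lists by the same rule. Members named outside this rule, where few were called or where an isoform pair was described, were chosen after their values were seen. The result of 1 gene of the pathway lists is not reported here.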

Additional observations from a re-analysis of the deposited data

How the results depend on the processing

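Direction was followed only for the members given in full, and none of them was reversed. They had been picked as called and with 1 direction in every library, which left little room for a reversal. Members that were not called were not followed. Over the alternatives other than leaving out a replicate, 271 values of the followed members kept their call and 33 lost it. With a replicate left out these numbers were 56 and 19. The count of 13 called members between monocyte-like cells and Lyve1 macrophages was 11 to 12 with a replicate left out. Against Ccr2 macrophages the count of 6 was 3 without the library block and 1 with a stricter gate, and 1 to 5 with a replicate left out. Against Cd209a DC the count of 5 was 2 with DESeq2, 1 with a stricter gate and 3 to 5 with a replicate left out. For Cx3cr1 macrophages the count of 3 was 5 with no filter on low counts, 0 without the library block and 2 to 7 with a replicate left out. For cDC1 the count of 5 was 0 with DESeq2 and 1 without the block, which pairs classes of 1 library. For ILC2 the count of 3 was 5 with no filter and 1 to 3 with a replicate left out, and for mast cells the count of 5 was 1 with DESeq2. The cause was not tested.

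The mean summed CPM of all 34 members was 4470 in monocyte-like cells and 4368 in mast cells. Without Gapdh, which lowers the sum by construction, mast cells came first at 3786 and monocyte-like cells next at 3628. The other sums fell from 3784 to 2842 in Cd209a DC, 3495 to 2749 in cDC1, 3611 to 2643 in Ccr7 DC, 3201 to 2433 in Ccr2 macrophages, 2509 to 1961 in Cx3cr1 macrophages, 2319 to 1979 in Lyve1 macrophages, 3788 to 2945 in ILC2, 3630.1 to 2642 in T and NK cells, 2436 to 2031 in macrophages without the subset genes and 2614 to 2185 in fibroblasts. With Gapdh and a stricter gate the sum was 3552 in cDC1, 3240 in Ccr7 DC and 3841 in ILC2. Over all genes DESeq2 called fewer: 980 against 1503 for monocyte-like cells and Lyve1 macrophages, 313 against 561 for Ccr2 macrophages, 255 against 492 for Cd209a DC, 379 against 695 for Cx3cr1 macrophages, 23 against 78 for Ccr7 DC, 239 against 1008 for cDC1, 316 against 622 for ILC2 and 290 against 650 for mast cells. Without the block, Cx3cr1 macrophages had 120 and Ccr7 DC 9. Fits without a replicate were not run for Ccr7 DC, cDC1 and mast cells, nor the stricter gate for Ccr7 DC or the minimum of 2000 UMIs for mast cells, since too few profiles were left. Leaving out cells with granulocyte markers and barcodes shared between libraries were alternatives chosen after seeing the data. The mast profiles held 39596 to 72847 UMIs, which limits the precision of their values.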
